A study of Arabidopsis thaliana with 4 samples.

Results

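Counts of 10 transcription factor genes that pattern the Arabidopsis root were read from RNA of whole seedlings. They are PLT1, PLT2, PLT3 and BBM, which are AP2-type factors of the PLETHORA family, the GRAS factors SHR and SCR, the homeobox gene WOX5, the zinc finger gene JKD, the MYB gene WER and the homeodomain gene GL2. They were chosen by gene identifier, 10 of the 37885 genes in the count table, and all 10 had counts in all 4 libraries. The seedlings carried the prt6-1 and hyt1-1 mutations together, were 7 days old, and had grown untreated in continuous light on agar without sucrose. The 4 libraries are biological replicates 1 to 4 of that genotype, and the count table names hup40 where the labels name hyt1. The title of replicate 4 spells the genotype prt-16hyt1-1, and it was read as the same genotype. PRT6 is the ubiquitin ligase that marks group VII ethylene response factors for degradation in the presence of oxygen. The double mutant was meant to be set beside earlier Col-0, prt6-1 and prt6-1erfvII libraries of the same age and light, which were not analysed here, so no value below measures an effect of a genotype.

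A root grows from a small group of dividing cells near its tip. PLETHORA proteins form a gradient with its peak at that stem cell niche, in response to auxin. SHR is made in the vascular cylinder and its protein moves outward by a cell layer, where SCR and JKD hold it in the nucleus and with it specify the endodermis. WOX5 marks the quiescent centre, the slowly dividing centre of the niche that keeps the cells around it as stem cells. In the epidermis WER switches on GL2 in cells that will not form a root hair. Several of the genes also work in the shoot: SHR and SCR in shoot and leaf tissue, PLT3 in the shoot meristem and GL2 in leaf hairs.

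The libraries held between 24743656 and 26155431 counts. In a principal component analysis of log2 CPM over genes past the filter, replicate 1 lay at -26.6 on the leading axis and the other 3 between 6 and 12.1, and the seed storage gene CRA1 had 1394 counts in replicate 2, against 86 to 159 in the others. Root tissue was represented by its markers. The 3 endodermis genes CASP1, ESB1 and MYB36 summed to between 55.0 and 70.6 counts per 1e6 library counts (CPM), and the 3 root cap genes SMB, BRN1 and BRN2 to between 1.36 and 3.16 CPM, with BRN2 at 0 counts in replicate 1. The leaf genes LHCB1.3 and RBCS1A summed to between 29900 and 31900 CPM, so the RNA came from root and shoot together. In such a mixture, fewer cells of a type and less RNA per cell cannot be told apart.

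The members are close enough in sequence to need a check of how reads could be split between them. PLT1 (AT3G20840) and PLT2 (AT1G51190) are the nearest pair, at 73.0% identity over 1907 aligned transcript bases, and the longest run of coding sequence they share without a difference is 38 bases. The most alike 120 coding bases of the pair are shown as the stretch where reads of the 2 genes are hardest to tell apart over such a length. They are bases 847 to 966 of the PLT1 coding sequence and bases 874 to 993 of that of PLT2, read from RefSeq's TAIR10.1 genome, and capitals mark the 9 differing positions.
PLT1: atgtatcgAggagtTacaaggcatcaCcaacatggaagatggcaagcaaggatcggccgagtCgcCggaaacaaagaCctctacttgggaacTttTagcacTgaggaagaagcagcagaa
PLT2: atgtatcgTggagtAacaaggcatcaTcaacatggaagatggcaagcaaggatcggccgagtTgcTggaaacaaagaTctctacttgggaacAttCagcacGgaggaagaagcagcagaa
BBM shared runs of at most 26 bases with PLT1 and 17 with PLT2, and PLT3 shared at most 22 with PLT1. SHR and SCR, of another family, shared 16. No alignment of SHR to another annotated transcript was found, and WER was closest to GL1, at 84.0% over 213 bases.

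The 250 bases before the annotated starts of PLT1, PLT2 and BBM are shown because these 3 PLETHORA genes, like SHR, had their highest level in replicate 4, as described below, and that of GL2 because it holds most matches. Capitals mark the auxin response elements TGTCTC and TGTCGG, searched on both strands with the GCC box GCCGCC, to which ethylene response factors bind. All are written along the gene's own strand, on TAIR10.1.
PLT1 (plus strand, chr3:7300194-7300443): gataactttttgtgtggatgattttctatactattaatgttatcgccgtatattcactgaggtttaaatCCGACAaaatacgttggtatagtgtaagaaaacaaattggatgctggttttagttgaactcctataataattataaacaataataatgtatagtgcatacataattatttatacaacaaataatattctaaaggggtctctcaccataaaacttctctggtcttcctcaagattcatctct
PLT2 (plus strand, chr1:18976926-18977175): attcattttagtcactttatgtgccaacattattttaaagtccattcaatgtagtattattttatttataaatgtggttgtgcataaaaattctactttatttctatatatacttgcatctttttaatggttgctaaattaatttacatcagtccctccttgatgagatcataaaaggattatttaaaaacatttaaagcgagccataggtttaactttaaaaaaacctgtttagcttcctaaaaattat
BBM (minus strand, chr5:5745749-5745998): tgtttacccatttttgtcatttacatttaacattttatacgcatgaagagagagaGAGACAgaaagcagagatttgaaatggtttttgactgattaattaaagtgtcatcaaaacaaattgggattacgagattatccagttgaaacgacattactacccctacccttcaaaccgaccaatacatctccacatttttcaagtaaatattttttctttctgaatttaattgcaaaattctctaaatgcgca
GL2 (plus strand, chr1:30036706-30036955): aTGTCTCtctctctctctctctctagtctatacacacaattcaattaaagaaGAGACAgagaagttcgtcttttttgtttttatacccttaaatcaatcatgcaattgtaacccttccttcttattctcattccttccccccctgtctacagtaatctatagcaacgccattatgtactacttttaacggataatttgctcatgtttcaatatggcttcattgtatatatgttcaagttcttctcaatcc
TGTCTC stood in 2 of the 10 members, BBM and GL2, and in 10.9% of the 27441 protein-coding genes with such a window. TGTCGG stood in 2 members, PLT1 and PLT3, and in 4.16% of all windows. GCCGCC stood in 0 members and in 1.87% of all windows. These matches describe the letters of the windows alone.

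The 10 genes spanned a range of levels from SCR down to BBM. Levels of different genes are compared as transcripts per 1e6 transcripts of the library (TPM), which divides each count by the length of the gene's exons. The median gene that passed the expression filter, which 52.6% of all genes did, stood at 13.6 TPM, and 9 of the 10 members lay below it. All members but BBM passed that filter. In order of mean TPM they were SCR, SHR, JKD, GL2, PLT3, WER, WOX5, PLT1, PLT2 and BBM. For 5 of the 9 neighbouring pairs in this order the 4 values of the genes did not overlap. The neighbours that did overlap were SHR and JKD, PLT3 and WER, PLT1 and PLT2, and PLT2 and BBM. Without length normalization WOX5, which has the shortest exons of the 10 at 1052 bases, moved from the seventh position to below PLT2.

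**Figure D1:**
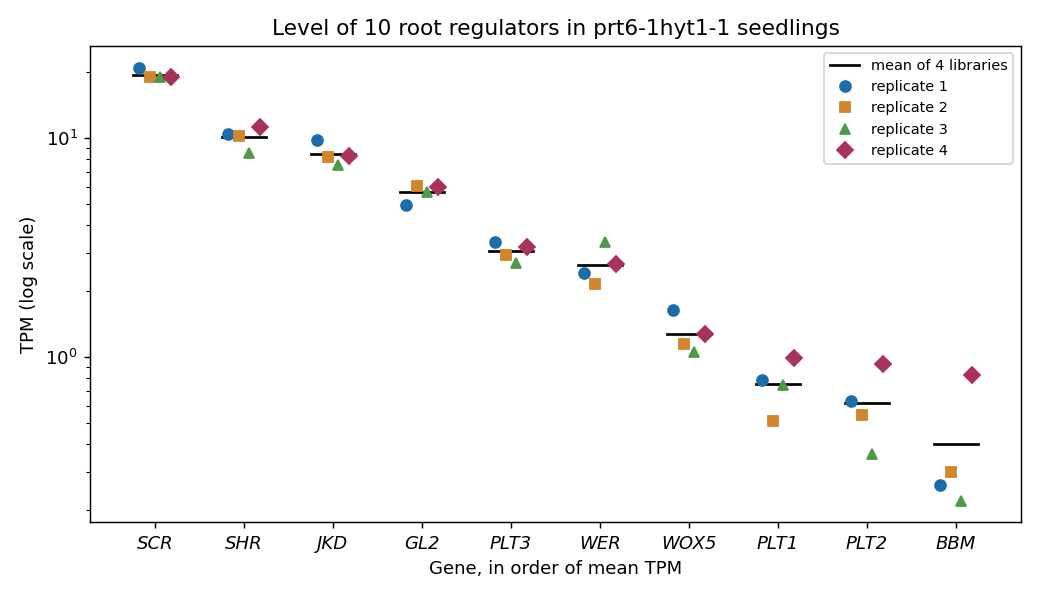
TPM of each member (log axis) in each of the 4 libraries, with the mean as a bar, in order of mean TPM. SCR stood highest at 19.5 TPM and BBM lowest at 0.401 TPM, and the replicate 4 symbol lies above the other 3 for PLT1, PLT2, BBM and SHR.

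The endodermis regulators were the most abundant members and SCR stood above both SHR and JKD in every library. SCR (AT3G54220, chromosome 3, 20069987 to 20072878, plus strand) had 925, 895, 882 and 850 counts in replicates 1 to 4, a mean of 19.5 ± 0.959 TPM (SD, n = 4). SHR (AT4G37650, chromosome 4, 17691687 to 17693859, plus strand) had 358, 373, 310 and 396 counts, a mean of 10.1 ± 1.17 TPM. JKD (AT5G03150, chromosome 5, 745421 to 749028, plus strand) had 356, 318, 289 and 305 counts, a mean of 8.47 ± 0.944 TPM. The 4 SCR counts were close together, those of SHR were lowest in replicate 3 and highest in replicate 4, and those of JKD were highest in replicate 1. SCR reached the 70.1 percentile of the 25774 genes with a count, SHR the 54.9 percentile and JKD the 51.1 percentile. Within a library the log2 TPM ratio of SHR to SCR was -0.96 ± 0.17 (SD, n = 4), and of JKD to SCR -1.21 ± 0.09. Both ratios were negative in 4 of 4 libraries. With 4 libraries the exact two-sided sign-flip test can give no p below 0.125, which it gave for both (0.143 after Benjamini-Hochberg adjustment over 8 pairs of members).

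Members of the PLETHORA family differed in level, with PLT3 above the 3 genes that act mainly in the root tip and embryo. PLT3 (AT5G10510, listed as AIL6, chromosome 5, 3315401 to 3320323, plus strand) had 165, 151, 139 and 158 counts, a mean of 3.04 ± 0.298 TPM (SD, n = 4). PLT1 (chromosome 3, 7300444 to 7303693, plus strand) had 29, 20, 29 and 37 counts and a mean of 0.756 ± 0.193 TPM. PLT2 (chromosome 1, 18977176 to 18980618, plus strand) had 22, 20, 13 and 33 counts and a mean of 0.615 ± 0.237 TPM. These 2 genes, which act together in specifying the niche, overlapped in level and lay at the 20.9 and 19.4 percentiles of genes with a count. BBM (AT5G17430, chromosome 5, 5742393 to 5745748, minus strand), known for its role in embryo development, had 9, 11, 8 and 30 counts and a mean of 0.401 ± 0.285 TPM. It was lowest of the 10 on average, and its replicate 4 value of 0.825 TPM stood apart from 0.221 to 0.297 TPM in the others.

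Within libraries PLT3 exceeded PLT1 by a log2 TPM ratio of 2.04 ± 0.35 (SD, n = 4) and PLT2 by 2.38 ± 0.46, in 4 of 4 libraries each (exact sign-flip test, p = 0.125 each). PLT1 to PLT2 was 0.34 ± 0.50, positive in 3 of 4 libraries (exact p = 0.25). BBM to PLT2 was -0.75 ± 0.46, negative in 4 of 4 libraries (exact p = 0.125), and closest to 0 in replicate 4, at -0.17. PLT3 overlaps the kinase gene RBK1 (AT5G10520) on the opposite strand over 454 exon bases. RBK1 had 99 to 132 counts per library, and a share of its reads in the PLT3 count was not tested.

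**Figure D2:**
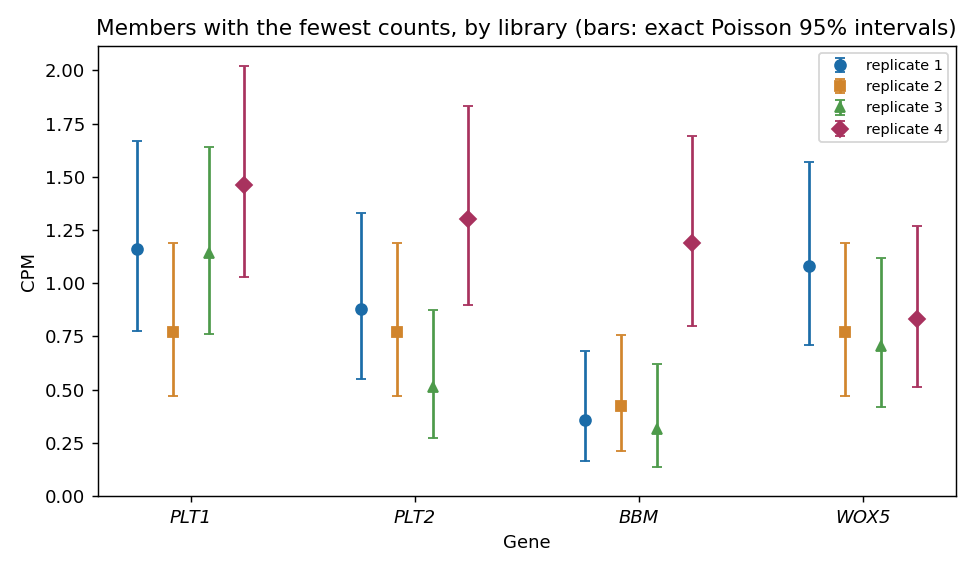
CPM of the 4 members with the fewest counts in each library, with exact Poisson 95% intervals that cover counting error only. The replicate 4 interval of BBM, from 0.800 to 1.69 CPM, lies above those of the other 3 libraries, while the intervals of WOX5 all overlap.

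WOX5 was detected in all 4 libraries at a low level. WOX5 (AT3G11260, chromosome 3, 3527280 to 3528440, plus strand) had 27, 20, 18 and 21 counts, a mean of 1.28 ± 0.259 TPM (SD, n = 4). The highest value was in replicate 1 and the other 3 lay close together. It stood far below SCR, which works in the same cells as well as in the endodermis, at a log2 TPM ratio of -3.95 ± 0.22, negative in 4 of 4 libraries (exact sign-flip p = 0.125). Its nearest relative, WOX7, aligned at 79.8% identity over 242 bases and had 3 counts in replicate 1 and 0 elsewhere.

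Of the epidermis genes, GL2 stood above WER, the factor upstream of it. GL2 (AT1G79840, chromosome 1, 30036956 to 30041440, plus strand) had 251, 325, 305 and 307 counts, a mean of 5.66 ± 0.499 TPM (SD, n = 4). WER (AT5G14750, listed as MYB66, chromosome 5, 4763372 to 4764834, minus strand) had 48, 45, 70 and 53 counts, a mean of 2.64 ± 0.515 TPM. GL2 was lowest in replicate 1, and WER was highest in replicate 3. Their log2 TPM ratio was 1.11 ± 0.30, positive in 4 of 4 libraries (exact sign-flip p = 0.125), and it was 2.46 without length normalization, as GL2 has 3204 exon bases and WER 1256. GL2 shares 155 exon bases with AT1G09927 on its own strand, which had 13 to 18 counts, and the part of overlapping genes in the GL2 count was not tested.

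The number of members called by the test of spread between the replicate samples depended on the libraries used. A chi-square test of homogeneity over libraries, with Benjamini-Hochberg adjustment over all 20687 genes with at least 10 expected counts, called 2 of the 10 members, BBM (adjusted p = 0.000327) and SHR (adjusted p = 0.0284). Of all genes tested, 42.6% were called, so the members' share lay below the background with all 4 libraries. That order did not hold throughout: without replicate 1, 3 members were called beside 26.5% of genes, and without replicate 2, 4 members beside 35.2%. Without replicate 3 or replicate 4, 1 member was called, beside 30.8% and 35.7% of genes. The call comes more easily at high counts. Among genes with at most 400 counts in all, 29.8% were called, and of the 5 members in that range 1 was. The observed coefficient of variation (CV) was 72.2% for BBM, where counting alone gives 26.2%, and 10.2% for SHR, where counting gives 5.28%. PLT2 (adjusted p = 0.0516) had 38.1% beside 21.3% and JKD (adjusted p = 0.0566) 9.96% beside 5.62%, and both just missed the threshold. WER had 20.7% beside 13.6%, GL2 9.51% beside 5.81% and PLT1 25% beside 18.6%. Observed and counting values were closest for SCR, with 4.19% beside 3.36%, for PLT3, with 8.26% beside 8.08%, and for WOX5, with 19.3% beside 21.6%.

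The SHR call was lost without replicate 3 (adjusted p = 0.521) and without replicate 4 (adjusted p = 0.113). With total counts per library in place of scaled sizes, PLT2 (adjusted p = 0.0399) and JKD (adjusted p = 0.0307) were also called, which made 4 members beside 44.2% of genes. The edgeR fit gave SHR a biological coefficient of variation of 0.0875, where genes of its expression lay on a trend at 0.0871. The value of SCR was 0.0563 on a trend of 0.0623, that of WOX5 0.172 on 0.188, and that of PLT2 0.211 on 0.188.

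**Figure D3:**
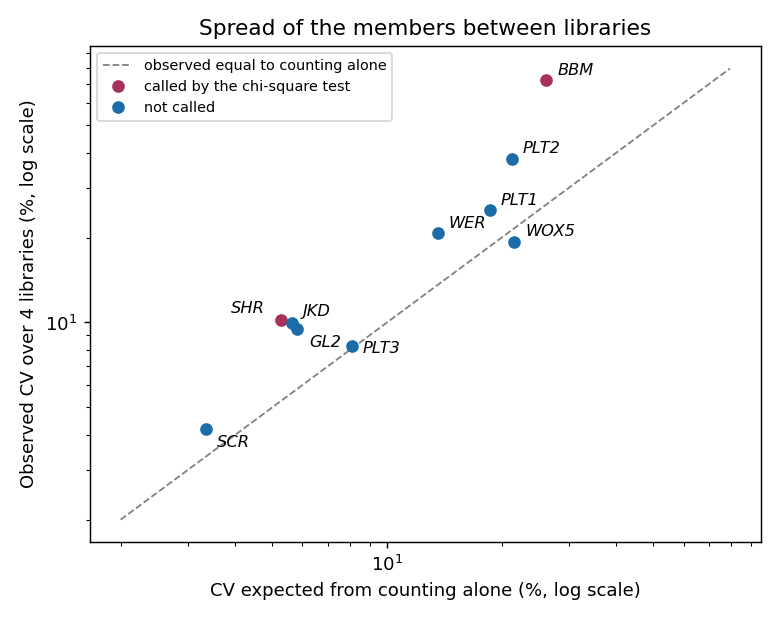
Observed CV of CPM over the 4 libraries against the CV that counting alone would give, both in percent on log axes, with a dashed line where they are equal. BBM lies farthest above the line at 72.2%, and WOX5 is the 1 member below it.

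BBM was set apart by replicate 4. Its level there was 1.19 CPM, beside 0.360, 0.424 and 0.314 CPM in replicates 1 to 3, which is 3.24 times the mean of those 3. The exact Poisson 95% interval in replicate 4 ran from 0.800 to 1.69 CPM, and the upper bounds in the other libraries were 0.684, 0.759 and 0.619 CPM. Without replicate 4 the gene fell under 10 expected counts per library and was not tested. PLT2 and PLT1 were also highest in replicate 4, at 1.81 and 1.43 times the mean of the other libraries, though neither was called. PLT3 in replicate 4 was at 1.05 times that mean, SCR at 0.949 and WOX5 at 0.973. In all, 4 of the 10 members were highest in replicate 4, beside 22.6% of genes tested, and as many, 4, in replicate 1, beside 28.8%. In replicate 3, 6 of 10 were lowest, beside 26.4%. CRA1, the seed storage gene, was highest in replicate 2. Any link of its level to that of BBM was not tested.

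Of the 3 root cap markers 2 were also highest in replicate 4. SMB, which promotes maturation of the root cap, had 21, 20, 24 and 38 counts. BRN1 had 13, 24, 23 and 34 counts, and BRN2, highest in replicate 2, had 0, 17, 12 and 8 counts. Neither SMB nor BRN1 was called (adjusted p = 0.0816 and 0.059). The summed root cap markers stood at 3.16 CPM in replicate 4, beside 1.36, 2.35 and 2.32 CPM in replicates 1 to 3. The 7 root hair genes summed to 26.1 CPM in replicate 4, beside 19.1, 25.9 and 21.8 CPM in replicates 1 to 3. Of these, RHD6, RSL1, RSL2 and RSL4 were highest in replicate 4, and EXPA7, COBL9 and LRL3 in replicate 2. The 3 root hair markers among them, EXPA7, COBL9 and RSL4, summed highest in replicate 2. Their sum was 16.2 CPM there and 15.0 CPM in replicate 4. The 3 endodermis genes did not peak in replicate 4, where they summed to 63.8 CPM, beside 55.0, 70.6 and 62.9 CPM. The part of root tip RNA in the level of BBM was not tested.

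**Figure D4:**
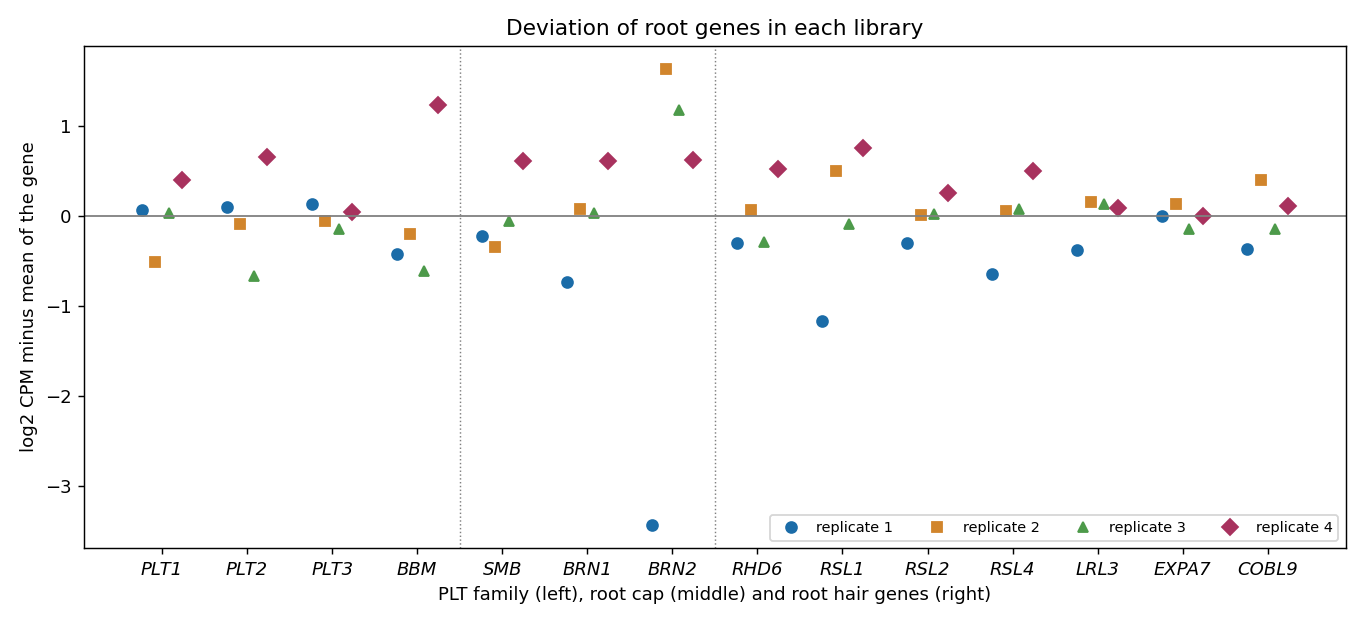
Log2 CPM of each gene minus its own mean, in each library, for the 4 PLETHORA family members, the 3 root cap markers and the 7 listed root hair genes. BBM stands at 1.24 in replicate 4, and PLT2 at 0.66, while PLT3 stays within 0.14 of its mean in all libraries.

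The genes whose profile over the 4 libraries lay nearest to a called member were found by the root mean square distance of log2 CPM deviations, among 6258 called genes with at least 10 CPM. SHR had AT3G11720 and AT2G46000 at a distance of 0.01 each. AT3G11720 had 381, 387, 326 and 418 counts and AT2G46000 had 295, 310, 258 and 335. BBM had no near profile among these genes, all of which have a higher level than BBM: the closest were AGP22, an arabinogalactan protein gene with 255, 334, 333 and 492 counts, at 0.46, and BHLH32, with 304, 296, 288 and 451 counts, at 0.47. Profiles over 4 libraries are short, and all genes share those libraries. The member PLT2, which is below that level, lay closer to BBM, at 0.40. Between members the nearest profiles were those of PLT3 and JKD, at 0.06, and of SCR and JKD, at 0.08.

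In 8 lists, the last of them of the shoot meristem, 70 other genes related to the members were read. Of these, 59 passed the filter, 60 could be tested and 23 were called, a share close to the background of 42.6%. Without replicate 1 the count of calls was 11 and without replicate 3 it was 15. Of the 60, 12 were highest in replicate 4, beside 22.6% of all genes tested, and 20 were lowest in replicate 3, beside 26.4%. The median log2 TPM was 1.49 over the 10 members, 3.30 over the list of the SHR and SCR module and the endodermis, 1.70 over the epidermal partners and 0.24 over the PLETHORA relatives, beside 3.76 over all genes past the filter.

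Among the 4 PLETHORA relatives only ANT, which drives growth of young shoot organs, was called (adjusted p = 8.5e-05). ANT had 605, 463, 507 and 528 counts and was the highest of its list at 14.9 TPM. PLT5 stood at 1.5 TPM and PLT7 at 0.952 TPM, in the range of PLT1 and WOX5, and AT1G72570 had 1 count in all. ANT and PLT3 were both highest in replicate 1, though PLT3 was not called.

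In the SHR and SCR list 14 of 14 genes passed the filter and 5 were called. CASP1, a protein of the Casparian strip that seals the endodermis, was highest at 44.3 ± 3.07 TPM (SD, n = 4), with 585, 733, 678 and 630 counts (adjusted p = 0.0143). ESB1, which is needed to build that strip, had 682, 985, 838 and 874 counts (adjusted p = 1.29e-08). Both were lowest in replicate 1, where SCR was highest, though SCR was not called. MGP, a zinc finger partner of JKD and a target of SHR, was lowest of the list at 2.77 TPM and its relative NUC, with 102, 137, 92 and 134 counts, was called (adjusted p = 0.0198). CYCD6;1, the cyclin that SHR and SCR switch on for the division that forms cortex and endodermis, had 99, 94, 58 and 79 counts (adjusted p = 0.0173). NUC and CYCD6;1 were lowest in replicate 3, as SHR was. IDD4, another gene of the JKD family, had 560, 447, 510 and 434 counts (adjusted p = 0.000119).

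Of the 12 stem cell niche and root cap genes, 8 passed the filter and 3 were called. HAM1, a GRAS factor that helps to hold stem cells undifferentiated, was highest at 25.8 TPM (adjusted p = 0.00432), with 1021, 1226, 1108 and 1036 counts. The receptor gene CLV1 stood at 22.6 TPM (adjusted p = 0.0145), highest in replicate 1. BRAVO, a MYB factor that keeps quiescent centre cells from dividing, had 60, 101, 77 and 88 counts (adjusted p = 0.0493). It was lowest in replicate 1, where WOX5, expressed in the same cells, was highest, though WOX5 was not called (adjusted p = 0.574). CLE40, a peptide gene that limits WOX5, had 0 counts in every library. That allows an expected count of up to 3 per library at 95% confidence (upper bound only).

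Of the 8 genes of RGF signalling, peptides that maintain the PLETHORA gradient, 6 passed the filter and 2 were called. RGF1 was lowest, with 1, 3, 0 and 1 counts. AT4G26540, annotated as a leucine-rich repeat receptor-like kinase, was highest at 18.6 TPM (adjusted p = 0.00816). AT5G48940, annotated likewise, had 101, 102, 77 and 128 counts (adjusted p = 0.014), highest in replicate 4 and lowest in replicate 3, as BBM, PLT2 and SHR were.

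All 9 auxin genes passed the filter and 5 were called. The auxin efflux carrier gene PIN3 was highest at 64.2 TPM and was not called. PIN7 (49.7 TPM, adjusted p = 0.000912) and PIN4 (45.8 TPM, adjusted p = 0.019) were highest in replicate 1. So was MP, an auxin response factor that acts upstream of PLETHORA genes in the embryo, with 575, 458, 504 and 452 counts (adjusted p = 0.000203). PIN2, the carrier of the root epidermis and cortex, was the lowest at 7.82 TPM and had 353, 485, 343 and 417 counts (adjusted p = 3.62e-05).

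Of 11 epidermal partners of WER and GL2, 10 passed the filter and 3 were called. TTG1, the WD-repeat protein of the complex in which WER works, was highest at 32.0 TPM and its counts ran only from 963 to 996. The bHLH partners GL3 and EGL3 were low, at 0.942 and 2.52 TPM, and EGL3 had 133, 112, 69 and 115 counts (adjusted p = 0.000484). The small MYB genes TRY and ETC1 compete with WER for those partners. TRY had 22, 15, 44 and 33 counts (adjusted p = 0.00291) and was highest in replicate 3, as WER was, though WER was not called. ETC1 had 16, 31, 6 and 25 counts (adjusted p = 0.00239) and was lowest in that library. EGL3 was lowest in replicate 3 as well.

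Of the 7 root hair genes, which are active in cells where GL2 is not, 6 passed the filter and 3 were called. EXPA7, a cell wall expansin, was highest at 9.71 TPM and RSL1 lowest at 0.401 TPM. The bHLH gene RHD6, which starts hair formation, had 47, 63, 48 and 84 counts (adjusted p = 0.00791), and RSL4, which drives hair growth, had 30, 51, 51 and 68 counts (adjusted p = 0.0096). COBL9 had 96, 171, 115 and 136 counts (adjusted p = 0.000584). Of the 6 tested, 5 were lowest in replicate 1, beside 28.4% of all genes tested. GL2 was also lowest there, though it was not called.

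Shoot meristem genes gave the counterpart from the other stem cell niche of the seedling. WUS, the relative of WOX5 that maintains it, had 0 counts in every library, and CLV3 had 1 count in replicate 2. For WUS that allows an expected count of up to 3 per library at 95% confidence (upper bound only). WOX5 had 18 or more counts in each of the same libraries. REV, a homeodomain gene of vascular and meristem tissue, was highest, with 1094, 1039, 1050 and 1005 counts. STM, which keeps meristem cells undifferentiated, had 90, 59, 76 and 93 counts (adjusted p = 0.0385).

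**Figure D5:**
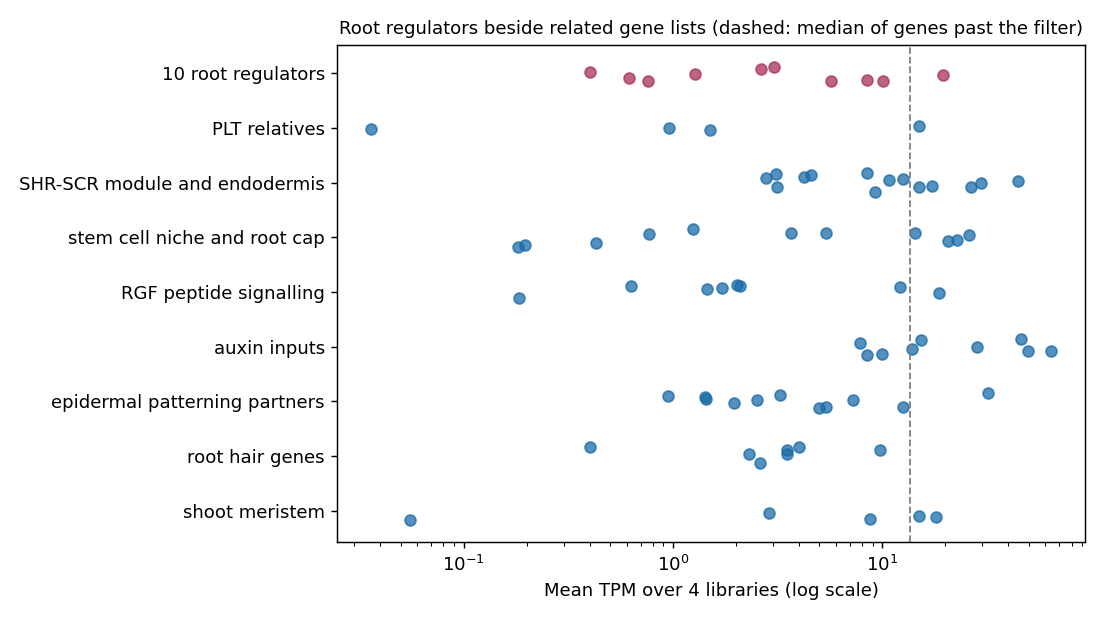
Mean TPM (log axis) of the 10 members and of the related genes with at least 1 count, a point per gene and a row per list, with a dashed line at 13.6 TPM, the median of genes past the filter. SCR is the 1 member right of the line, and PIN3 is the highest of all genes shown at 64.2 TPM.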

How the data were processed

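The authors deposited raw read counts per gene, made with HISAT2 2.1.0 and featureCounts 1.6.0 on TAIR10, per the submitters' processing notes. Not given in the sources used here are the strand setting, the annotation release and how reads with several positions were treated. A column was tied to a sample by prt6-1 and its replicate number. Gene positions, exon lengths and sequences came from RefSeq's TAIR10.1, whose build differs in name from the authors', and 37882 of 37885 identifiers matched. TPM used the count plus 0.5 over merged exon length. CPM used effective library sizes (TMM) from edgeR 4.0.16 (R 4.3.3), whose expression filter and dispersion fit had 1 group. The chi-square test used those sizes, a threshold of 0.05 and SciPy 1.17.1, and was checked on simulated data. Its p-values ask whether the counts of a gene differ between these samples beyond counting error. They do not measure how large the difference is. DESeq2 1.42.0 gave other size factors, and BLAST 2.17.0 compared transcripts. Depth ran from 24743656 to 26155431 counts per library.

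The members, lists and pairs were chosen with earlier results of these data known. Named were all members, the highest, lowest and called genes of each list, and the 2 nearest profiles of each called member. The genes SMB, BRN1, BRN2, PLT5, PLT7, WOX7 and CLV3 and the neighbours of PLT3 and GL2 were named after their values were seen. Not every gene this rule names, nor every overlapping neighbour, is reported here.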

Additional observations from a re-analysis of the deposited data

Results flagged for a closer look

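Of 50 sets of 4 values examined (the CPM of named genes and the ratios of pairs), 3 had a sample far from the others, where chance gives such a gap in about 5% of sets. The gap between the extreme value and its nearest neighbour made up 0.874 of the whole range for BBM, with replicate 4 high at 1.19 CPM. It made up 0.88 of the range for GL3, with replicate 4 low at 34 counts, beside 43, 45 and 43. It made up 1 for AT1G72570, whose 1 count in replicate 2 was the only one.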

How the results depend on the processing

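All 8 pair ratios kept their sign under every length, added count and left-out library tried, and the count of neighbours without overlap, 5 of 9, stayed between 4 and 7. The count of called members was 2, it was 4 with total counts per library, and it ran from 1 to 4 as each replicate was left out. Over all genes 8823 were called, and from 5484 (without replicate 1) to 7382 with a replicate left out. For the 70 related genes the 23 calls went to between 11 and 21. With DESeq2 size factors, or with a minimum of 5 or no expected counts, 2 members were called. The level of BBM in replicate 4 over the mean of the other libraries was 3.24, and 3.3 with total counts per library, an alternative chosen after seeing the data. The settings that leave out a replicate have fewer samples, and the cause of the shift with total counts was not tested. No paired analysis was possible because there is 1 group. Depth limits the members with the fewest counts: counting alone gives a CV of 18.6% to 26.2% for PLT1, PLT2, WOX5 and BBM.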
